A study of Homo sapiens with 8 samples.

Results

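RNA levels of ceritinib-resistant H3122-LR3 cells were compared with those of parental H3122 cells in pairs of arrays matched by agent. H3122 is an established human lung adenocarcinoma line that carries the EML4-ALK fusion, and H3122-LR2 and H3122-LR3 are its derivatives described as resistant to the ALK inhibitor ceritinib. The comparison was made of 4 of the 8 arrays of the series: untreated LR3 against untreated parental cells, and ceritinib-treated LR3 against ceritinib-treated parental cells. The other 4 arrays, parental cells with crizotinib and LR2 cells untreated, with crizotinib and with ceritinib, entered the model for the effect of the agent and the spread. Crizotinib and ceritinib, both ALK inhibitors, were given at 1000 nM for 6 h to cells grown in RPMI with 10% FBS, and no LR3 array with crizotinib was analysed here. The labels do not say whether LR3 is a clone or a pool, or whether it was kept without ceritinib before the 6 h. Each condition had 1 array, and nothing in the labels describes separate cultures. The p-values therefore measure only how a line difference varied over these arrays, which may be technical.

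EML4-ALK joins the ALK kinase to a partner that pairs it with itself, so the kinase stays active and drives the RAS-ERK and PI3K pathways. ALK inhibitors shut this signal off, and genes switched on by ERK, such as the phosphatase DUSP6 and the feedback inhibitor SPRY4, fall within hours in sensitive cells. Resistant cells can keep these pathways running through another receptor kinase, and the series takes up FGFR3, a receptor for fibroblast growth factors, as such a receptor.

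Values below are log2 signals, with levels of a line given in the order untreated, crizotinib, ceritinib. Each gene is given by 1 probe set unless others are named. For some genes, the mean over all probe sets differed less between the lines, also where no such mean is given. Differences are log2 differences of LR3 minus parental cells with limma standard errors. The arrays had medians of 5.31 to 5.36, or 5.46 for LR2 with ceritinib, and signals under 5.36, the middle of all probe set values, are called below the floor. Sizes of differences that reach below the floor are uncertain, since background compresses them. The epithelial markers EPCAM (12.22 to 12.52) and KRT8 (13.30 to 13.73) and the lung adenocarcinoma marker NKX2-1 (10.38 to 11.25) were high on all 8 arrays, while the surfactant gene SFTPB (5.40 to 5.58) lay at the floor. Of markers of other cell types, 12 of 14 fibroblast, 14 of 17 leukocyte and 8 of 14 endothelial genes were below the floor on all 5 parental and LR3 arrays.

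LR3 cells differed from parental cells in a broad set of genes, and falls were more frequent than rises among genes changed 2-fold. Of 10527 genes tested, 7555 (71.8%) had the same sign in both pairs, 4012 higher and 3543 lower in LR3. A gene was called when the limma fit gave an adjusted p under 0.05 and both pairs had the sign of the fit. This held for 1003 genes higher in LR3 (9.53% of those tested) and 1271 lower (12.1%), 21.6% in all. Among them 45 higher and 117 lower genes differed at least 2-fold in the fit. A difference of 2-fold or more in each pair was found for 34 higher and 77 lower genes. Every share of a gene list given below is read against 9.53% called higher and 12.1% called lower. Only 2 LR3 arrays carry this comparison. Without the untreated or the ceritinib LR3 array 214 or 253 genes were called higher and 616 or 379 lower. Without the untreated parental array the counts were 485 and 798, and without the ceritinib parental array 629 and 1182. In a fit of the 4 matched arrays alone, with agent as a block and 1 residual degree of freedom, limma called no gene, while 3092 had an unadjusted p under 0.05. When each array was centred on its median, the split turned from 44.1% higher among called genes to 55.1%.

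**Figure D1:**
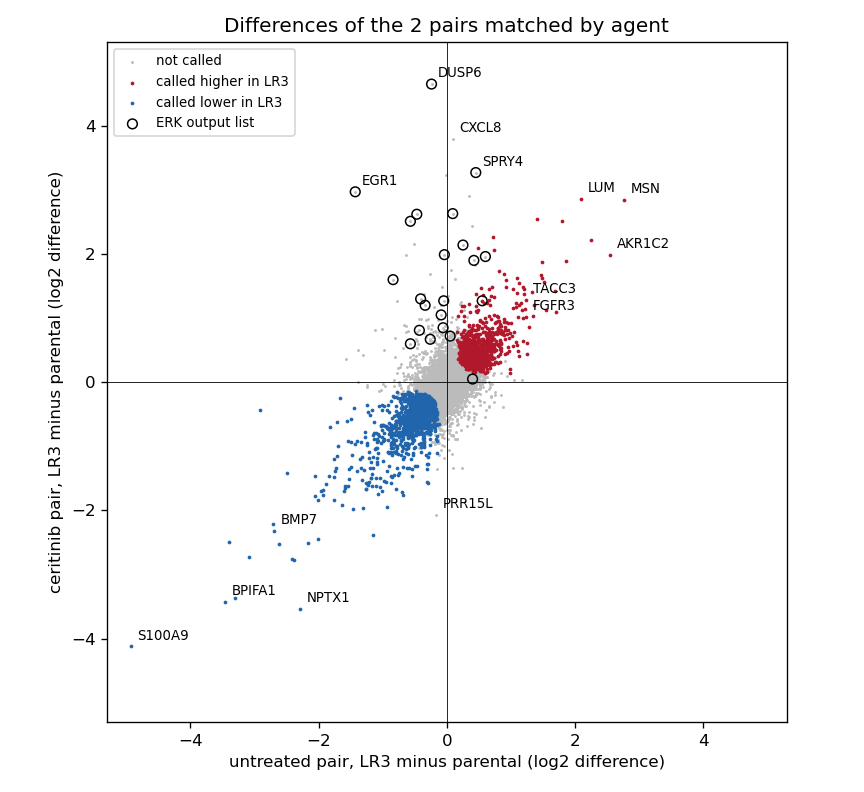
Each point is 1 of the 10527 tested genes, with its LR3 minus parental log2 difference in the untreated pair on the x axis and in the ceritinib pair on the y axis, red for called higher, blue for called lower and grey for not called. Called genes lie along the diagonal from S100A9 to MSN, while ringed ERK output genes such as DUSP6 (-0.24 untreated, 4.65 with ceritinib) stand above the origin.

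FGFR3, the receptor the series is about, was higher in both LR3 arrays. Its brighter probe set read 7.25, 7.40 and 7.68 on the parental arrays and 8.48 and 8.70 on the LR3 arrays, so all LR3 values lay above all parental ones. The fitted rise was 1.14 ± 0.084, or 2.2-fold (adjusted p = 0.000182), with pair differences of 1.23 untreated and 1.02 with ceritinib. A second FGFR3 probe set read 4.27, 4.04 and 4.05 on the parental arrays, below the floor, and 7.06 and 7.46 on the LR3 arrays, a fitted difference of 3.09 ± 0.14. Both probe sets rose, but not by the same amount, and the size of the rise differs accordingly. LR2 arrays read 7.65, 7.81 and 7.96 with the brighter probe set, and LR3 was higher than LR2 by 0.77 (adjusted p = 0.001).

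TACC3, which lies beside FGFR3 on chromosome 4 and encodes a protein of the mitotic spindle, rose as well. It was singled out after its values were seen. Signals were 7.87, 7.93 and 7.89 on the parental arrays and 9.11 and 9.18 on the LR3 arrays, without overlap, and the rise was 1.24 ± 0.086 (adjusted p = 0.000121). The pair differences were 1.24 and 1.29, and LR3 exceeded LR2 by 1.07 (adjusted p = 0.000277). Of the 6 TACC3 probe sets, 1 of the 5 not used rose by 1.18 ± 0.10, while the others lay between -0.025 and 0.51. The next tested genes on the other side of TACC3, TMEM129 (0.046 ± 0.080) and SLBP (0.079 ± 0.092), were not called. On the other side of FGFR3, LETM1 differed by 0.34 ± 0.12 (adjusted p = 0.0865) and NSD2 by -0.063 ± 0.077, neither of them called. FGFR3 and TACC3 were thus the only called genes among these 6 neighbours.

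The sequences before the starts of both genes are shown because the genes rose together. They are the 250 bases upstream of each start in the RefSeq table for GRCh38.p14, both on the plus strand, with CG dinucleotides in capitals, at chr4:1793043-1793292 for FGFR3 and chr4:1720381-1720630 for TACC3.
FGFR3: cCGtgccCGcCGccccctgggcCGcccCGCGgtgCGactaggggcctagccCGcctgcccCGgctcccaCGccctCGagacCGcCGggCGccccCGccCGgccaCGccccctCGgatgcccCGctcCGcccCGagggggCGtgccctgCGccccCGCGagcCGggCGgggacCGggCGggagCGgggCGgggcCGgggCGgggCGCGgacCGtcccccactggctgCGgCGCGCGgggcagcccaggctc
TACC3: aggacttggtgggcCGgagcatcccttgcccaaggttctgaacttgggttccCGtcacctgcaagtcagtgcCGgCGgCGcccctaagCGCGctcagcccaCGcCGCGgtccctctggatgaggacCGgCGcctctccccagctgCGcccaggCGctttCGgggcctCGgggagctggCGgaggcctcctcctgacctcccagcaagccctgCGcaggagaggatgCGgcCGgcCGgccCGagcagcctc
The FGFR3 window holds 40 CG dinucleotides and the TACC3 window 22, against a median of 21.0 over the 8732 tested genes with a window, so the TACC3 window is close to the middle of all genes.

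**Figure D2:**
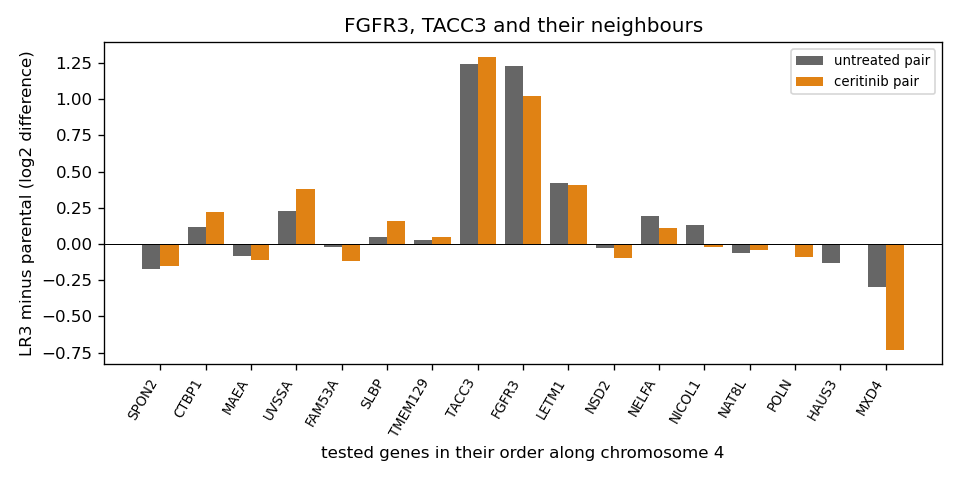
Bars show the LR3 minus parental log2 difference in the untreated pair (grey) and the ceritinib pair (orange) for FGFR3 and 8 tested genes on each side in their order along chromosome 4. TACC3 and FGFR3 exceed 1 in both pairs, while each of the 15 other genes differs less, at most by -0.73 (MXD4 in the ceritinib pair).

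Of 10 tested FGF receptors and co-receptors, FGFR3 and SDC1 were called higher and GPC6 and GPC4 lower. The SDC1 difference of 0.28 (adjusted p = 0.0401) was not called with any single array left out. FGFR1 differed by 0.011 ± 0.085 and FGFR4 by 0.22 ± 0.087, neither called, and FGFR2 was below the floor on every array. FGF9, a secreted ligand that activates FGFR3 and other FGF receptors, read 5.89, 7.0 and 6.84 on the parental arrays and 3.72 and 4.34 on the LR3 arrays. All LR3 values were below all parental values and below the floor, and the fall was 2.35 ± 0.097 (adjusted p = 1.34e-05). Over the 2 FGF9 probe sets the mean of the pair differences was -1.23. GPC6, a heparan sulfate carrier of the cell surface that can bind growth factors, fell by 3.30 ± 0.12, from 7.46, 7.58 and 7.63 to 4.15 and 4.27 (9.88-fold, adjusted p = 9.06e-06). Over the 4 GPC6 probe sets the mean of the pair differences was -1.225. Its relative GPC4 was lower by 0.86 ± 0.13, and without the LR3 ceritinib array GPC4 was not called (difference -0.76, adjusted p = 0.0526). IL17RD, a membrane inhibitor of FGF signalling, fell by 0.87 ± 0.10 (adjusted p = 0.00143), with 1 of its 4 probe sets of opposite sign.

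Among the other receptor kinases, 4 of 15 tested members were called higher (26.7%) and 1 lower, and 2 higher and none lower with either LR3 array left out. ALK itself rose by 0.84 ± 0.094 (adjusted p = 0.0012), from 7.19, 7.39 and 7.23 in parental to 8.10 and 8.09 in LR3 cells. LR2 read 8.47, 8.41 and 8.55, above all LR3 values, and LR3 minus LR2 was -0.37 (adjusted p = 0.0295). Its fusion partner EML4 differed by 0.08 ± 0.086 and was not called. ROR1, a receptor of the WNT pathway, rose by 0.70 ± 0.12, and without the LR3 ceritinib array ROR1 was not called (difference 0.55, adjusted p = 0.0762). MERTK, a receptor of the AXL family, rose by 0.47 ± 0.081, and without the untreated LR3 array MERTK was not called (difference 0.39, adjusted p = 0.0798). Receptors often linked to bypass resistance were not called: MET differed by -0.022 ± 0.13, ERBB2 by 0.13 ± 0.084, ERBB3 by 0.33 ± 0.10 (adjusted p = 0.0511) and IGF1R by 0.0083 ± 0.15. EGFR was too dim to test.

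Several ligands, adaptors and guidance receptors fell more than 2-fold. GRB10, an adaptor that restrains insulin and IGF receptor signalling, read 8.80, 8.36 and 8.30 on the parental and 6.74 and 6.52 on the LR3 arrays. It fell by 1.95 ± 0.12 or 3.86-fold (adjusted p = 9.39e-05) with no overlap of the lines. Averaged over the 3 GRB10 probe sets, the pair differences came to -1.24. IGFL1, a secreted protein of the IGF-like family, fell by 2.99 ± 0.20, and IGFBP3, which binds IGFs outside the cell, by 0.70 ± 0.093. Of 13 tested Eph receptors and ephrins, 4 were called lower and none higher, with a median of -0.22 beside 0.0067 for all genes. EPHA3, a receptor for ephrin A ligands, fell by 2.52 ± 0.15 and read 2.92 and 3.61 in LR3, below the floor. Over the 3 EPHA3 probe sets the mean of the pair differences was -0.855. EFNB2, a ligand of EphB receptors, fell by 1.42 ± 0.14 and EPHB1 by 1.21 ± 0.14. When probe sets were averaged per gene, 1 of the 13 was called lower.

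ERK output genes differed between the lines mainly with ceritinib. Parental DUSP6 signal was 12.41 untreated and fell to 7.39 with ceritinib, whereas LR3 read 12.17 and 12.04. The lines were thus close when untreated (-0.24) and far apart with ceritinib (4.65). SPRY4, an inhibitor of receptor kinase signalling, read 7.07, 3.81 and 4.08 in parental and 7.52 and 7.35 in LR3 cells, with pair differences of 0.45 and 3.27. EGR1, an immediate early transcription factor, was lower in LR3 untreated by 1.43 and higher with ceritinib by 2.97. For 4 of the 6 EGR1 probe sets, the mean of the pair differences was opposite in sign to the fit. For the chemokine CXCL8 the differences were 0.09 and 3.80, for the phosphatase DUSP5 -0.47 and 2.62, and for the WNT and FGF receptor trafficking inhibitor SHISA2 -0.01 and 3.23. On the LR3 ceritinib array CXCL8 read 9.24, DUSP5 7.43 and SHISA2 8.17, each above both inhibitor-treated parental arrays.

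Over the 22 tested ERK output genes the median difference was -0.075 untreated and 1.45 with ceritinib. With ceritinib 16 of 22 were at least 2-fold higher in LR3, against 0.997% of all genes, and untreated none was, against 0.465%. The members include the cyclin CCND1 (0.42 and 1.90), the ephrin receptor EPHA2 (0.09 and 2.63), the ERK-induced PHLDA1 (-0.57 and 2.51) and the feedback inhibitors SPRY1 (-0.04 and 1.99) and SPRED1 (0.60 and 1.96). These 5 and SPRY4 were named after their values were seen. From untreated to ceritinib the median member changed by -1.73 in parental cells and by -0.11 in LR3 cells, where no member changed 2-fold. In LR2 the median change was -0.12 with ceritinib and -1.46 with crizotinib, and DUSP6 read 11.79, 7.26 and 11.51. ETV4, a transcription factor induced by ERK, was the only list member called over the arrays, with a rise of 0.85 ± 0.16, and without the LR3 ceritinib array ETV4 was not called (difference 0.56, adjusted p = 0.0919).

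Whether the line difference depended on the inhibitor could not be called for any gene. A limma model with an interaction, in which crizotinib and ceritinib were 1 condition, called none (lowest adjusted p = 0.91, 505 genes at an unadjusted p under 0.05). It counts the LR2 difference between crizotinib and ceritinib (DUSP6 7.26 and 11.51) as spread. The error of such genes was wide (DUSP6 interaction 4.62 ± 2.44), so this model could hardly call them. A model with the LR2 inhibitor arrays as separate cells, chosen after seeing the data, also called none (lowest adjusted p = 0.488, 1069 at an unadjusted p under 0.05). These models had 2 and 1 residual degrees of freedom, so the pair contrasts above are single-array values. At 2-fold, 70 genes were higher and 74 lower in LR3 in the ceritinib pair alone, and 15 higher and 51 lower in the untreated pair alone.

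Some genes were lower in LR3 chiefly with ceritinib. PRR15L read 6.00, 8.14 and 8.10 in parental cells and 5.83 and 6.03 in LR3, with pair differences of -0.17 and -2.07. SOX2, a transcription factor of airway and stem cells, had differences of -0.30 and -1.57, and LRATD1 of 0.53 and -0.71. NPTX1, a secreted neuronal pentraxin, was lower in both pairs, by 2.29 untreated and 3.53 with ceritinib.

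Among the probe sets used, the one with the largest rise was for a gene of the cell cortex. MSN encodes moesin, which links actin filaments to membrane proteins. MSN read 4.04, 4.09 and 4.03 on the parental arrays, 3.66, 3.44 and 3.28 on the LR2 arrays and 6.80 and 6.87 on the LR3 arrays. Only the LR3 values were above the floor. Testing required 2 arrays above it, so MSN was tested only because LR3 was high, and its p-values are not independent of that filter. The rise over parental cells was 2.79 ± 0.11 or 6.9-fold (adjusted p = 1.31e-05) and over LR2 3.38 (adjusted p = 1.41e-05). All 3 MSN probe sets rose, by 1.09 to 2.79. Of its relatives, ezrin (EZR) was already bright in parental cells (11.50, 11.03 and 11.18) and rose by 0.43 ± 0.095, whereas radixin (RDX) fell by 0.50 ± 0.11. For both, the call depended on few arrays. EZR was not called without the parental ceritinib array, the LR3 ceritinib array or the untreated LR3 array (differences from 0.32 to 0.52). RDX was not called without the crizotinib arrays or without the LR3 ceritinib array (differences of -0.50 and -0.35). Leaving out the parental crizotinib array, the LR2 crizotinib array or both gave the same fit.

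VIL1, or villin, an actin bundler of intestinal microvilli, read 4.06, 4.08 and 3.63 on the parental and 5.47 and 6.18 on the LR3 arrays. It rose by 1.94 ± 0.24 (adjusted p = 0.00172), while the pair differences averaged 0.84 over its 3 probe sets. ANXA9, an annexin of epithelial cells, rose by 1.88 ± 0.091 from 5.09, 5.25 and 5.27 to 6.94 and 7.16. ANXA1, a phospholipid-binding annexin, went the other way, from 9.29, 9.08 and 9.09 to 7.54 and 7.71, a fall of 1.58 ± 0.099, and gelsolin (GSN), which severs actin filaments, fell by 0.62 ± 0.082. In none of these 4 genes did the lines overlap. In all, 7 of 20 list members were called higher (35.0%) and 4 lower, and the numbers were 3 higher with either LR3 array left out, 4 higher without the untreated or the ceritinib parental array, and 2 lower without the ceritinib LR3 array. RFTN1, a scaffold protein of lipid rafts, rose by 1.67 ± 0.11, and FLOT1, or flotillin, of the same membrane domains, by 1.23 ± 0.091.

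The window before the start of MSN is shown because the gene crossed from below to above the floor in LR3 alone. It is the RefSeq window chrX:65588127-65588376 of GRCh38.p14, plus strand, with CG dinucleotides in capitals.
MSN: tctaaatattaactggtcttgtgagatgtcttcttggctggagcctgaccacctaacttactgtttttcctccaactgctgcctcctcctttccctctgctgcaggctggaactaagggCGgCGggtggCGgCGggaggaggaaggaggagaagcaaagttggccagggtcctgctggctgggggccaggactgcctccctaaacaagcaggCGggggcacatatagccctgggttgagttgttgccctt
It holds 5 CG dinucleotides, against the median of 21.0 over all tested genes. In all, 13 genes were above the floor on both LR3 arrays and below it on all 3 parental arrays: ADGRF4, ANXA9, CCL15, CGNL1, DMRTA1, FRMD3, IFI35, LUM, MAGEC1, MSN, PSMB9, RADX and VIL1. The 10 of them with a window had a median of 8.5 CG dinucleotides. For the 29 genes that crossed the other way, of which 23 had a window, the median was 15. It was 21.0 both for the genes called higher and for those called lower.

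Other genes of this group include LUM, MAGEC1 and CCL15. Like MSN, VIL1, ANXA9 and IFI35, they were below the floor on all parental and LR2 arrays. All of these genes passed the filter for testing through the LR3 arrays alone, so their p-values are not independent of that filter. LUM, the matrix proteoglycan lumican, read 4.03, 3.50 and 3.26 on the parental and 6.12 and 6.12 on the LR3 arrays, a rise of 2.42 ± 0.19 (adjusted p = 0.000207). LUM is also a fibroblast marker, the only one of 14 that was tested. Mean signal over those 14 was 3.70 to 3.73 on the parental and 3.83 to 3.88 on the LR3 arrays. MAGEC1, an antigen of the testis and of tumours encoded on the X chromosome, rose by 2.10 ± 0.16, from 4.52, 4.50 and 4.0 to 6.31 and 6.51. Averaged over the 3 MAGEC1 probe sets, the pair differences came to 1.42. CCL15, a chemokine, rose by 1.56 ± 0.081, and LR2 cells were at 4.45, 4.90 and 4.59, below all LR3 values.

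**Figure D3:**
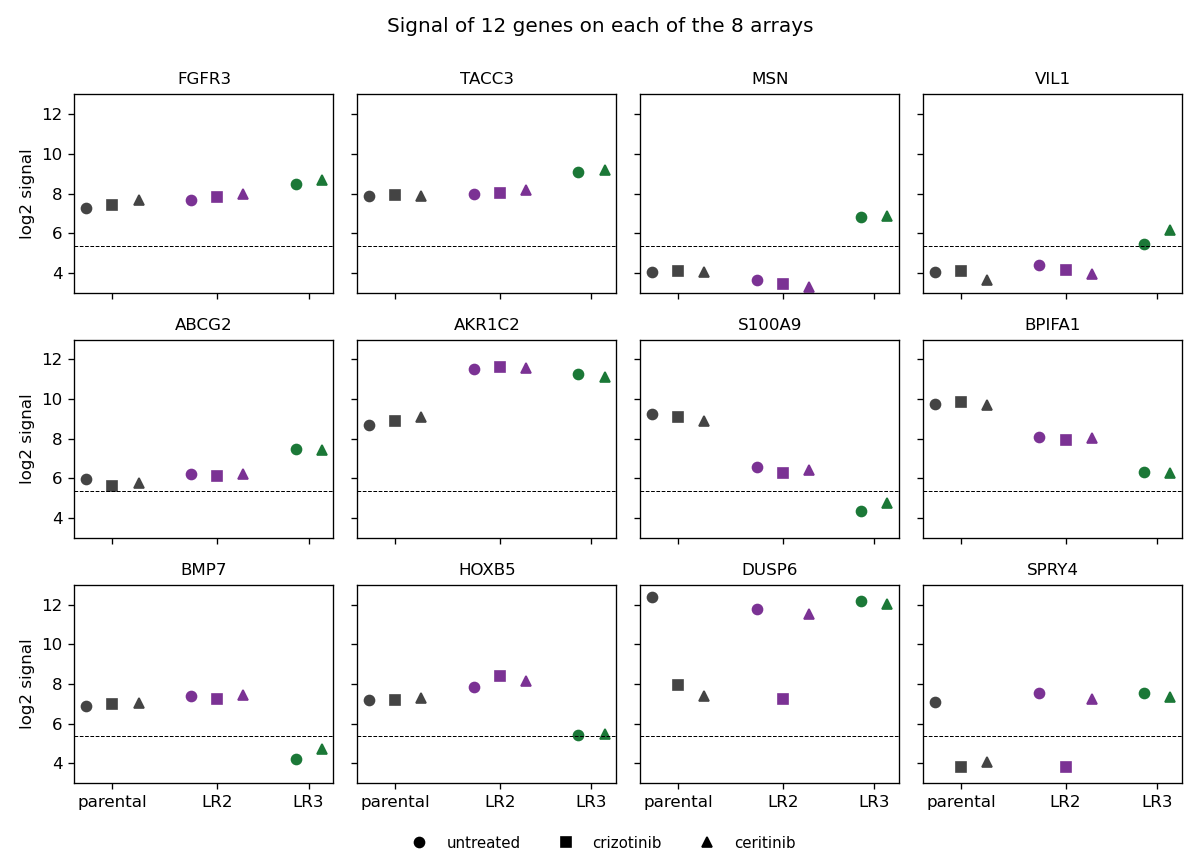
Points give the log2 signal of 12 genes on each of the 8 arrays, by line (x axis) and agent (circle untreated, square crizotinib, triangle ceritinib), with the floor of 5.36 as a dashed line. In LR3, MSN and VIL1 cross the floor upwards and S100A9 and BMP7 downwards, and DUSP6 and SPRY4 keep their untreated level with ceritinib.

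The largest falls included genes secreted by airway epithelium. S100A9, an S100 family protein abundant in myeloid cells and in irritated epithelia, read 9.27, 9.10 and 8.87 in parental, 6.55, 6.26 and 6.40 in LR2 and 4.34 and 4.75 in LR3 cells. The 3 lines did not overlap, and LR3, now below the floor, was lower than parental cells by 4.57 ± 0.17 or 23.7-fold (adjusted p = 9.06e-06) and differed from LR2 by -1.89 (adjusted p = 0.000412). S100A2, a squamous and basal S100 protein, fell by 1.03 ± 0.10. S100P was at 13.61, 13.55 and 13.54 in parental cells and rose by 0.42 ± 0.078, though without the LR3 ceritinib array or the untreated LR3 array, S100P was not called (differences from 0.38 to 0.47, adjusted p up to 0.0958).

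The S100A9 window is shown as the counterpart of MSN, for a gene that crossed the floor downwards. It spans chr1:153357604-153357853 on the plus strand of GRCh38.p14 and holds 4 CG dinucleotides.
S100A9: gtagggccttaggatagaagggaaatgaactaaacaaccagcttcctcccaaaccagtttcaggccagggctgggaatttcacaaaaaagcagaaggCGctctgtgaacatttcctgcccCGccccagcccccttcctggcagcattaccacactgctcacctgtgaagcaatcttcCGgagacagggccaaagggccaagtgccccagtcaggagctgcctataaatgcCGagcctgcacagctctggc
The MSN and S100A9 windows thus both held fewer CG dinucleotides than the median of 21.0, unlike the FGFR3 window.

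BPIFA1, a secreted antimicrobial protein of the upper airway, read 9.76, 9.86 and 9.69 in parental, 8.09, 7.94 and 8.05 in LR2 and 6.30 and 6.27 in LR3 cells, a fall of 3.48 ± 0.092 from parental cells (adjusted p = 2.72e-06). Its relatives fell less: BPIFB1 by 1.35 ± 0.084 and BPIFA2 by 0.95 ± 0.094. The membrane mucin MUC4 fell by 2.57 ± 0.13, from 9.02, 9.20 and 9.26 to 6.63 and 6.48, and MUC1 by 0.84 ± 0.087. Over the 2 MUC4 probe sets the mean of the pair differences was -1.395, and 1 of 13 MUC1 probe sets had the opposite sign. Of 21 tested airway secretory and mucin genes, 9 were called lower (42.9%) and 6 higher (28.6%), with a median of -0.087. All members named here fell, while the list moved in both directions, with SPDEF among those called higher. Without the untreated LR3 array 1 was called higher, without the ceritinib LR3 array 3, and 7 were called lower with either of them left out.

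Of 18 lung and endoderm lineage genes, 7 were called lower (38.9%) and 1 higher, and 4 lower without the ceritinib LR3 array. The surfactant proteins SFTPA1 and SFTPA2 fell by 1.81 ± 0.093 and 1.45 ± 0.082. They are near-identical copies, and a probe set of one may also have read the other. HOPX, a homeobox cofactor of alveolar cells, was the member that rose, by 1.52 ± 0.11, from 7.61, 7.97 and 7.87 to 9.30 and 9.30 (adjusted p = 0.000129). The water channel AQP5 fell by 0.78 ± 0.17, and without the untreated parental array or the untreated LR3 array, AQP5 was not called (differences from -0.69 to -0.56, adjusted p up to 0.166). FOXA3, an endoderm transcription factor, fell by 0.75 ± 0.11 but was below the floor on parental and LR3 arrays alike. LR2 read 6.39, 6.37 and 6.61, and LR3 minus LR2 was -2.09. NKX2-1, the lineage factor of lung adenocarcinoma, differed by -0.30 ± 0.091 and was not called (adjusted p = 0.0526). Of 9 squamous genes, 4 were called lower and none higher, among them LY6D (-1.28 ± 0.14), the cornified envelope gene SPRR1B (-1.10 ± 0.18) and the basal gene TRIM29 (-0.81 ± 0.12). In 1 alternative, probe sets with the name suffixes _s, _x or _a were left out where a gene had another. LY6D, read here by an _a probe set, then differed by -0.17 and was not called (adjusted p = 0.194).

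Epithelial adhesion genes changed in both directions. Of 27 tested members, 7 were called lower (25.9%) and 4 higher (14.8%). Without the ceritinib LR3 array 3 were called lower, and with either LR3 array left out 1 was called higher. The tight junction claudin CLDN1 fell by 1.64 ± 0.11, from 8.91, 8.73 and 8.55 to 7.15 and 7.07, while CLDN3 rose by 0.70 ± 0.10. P-cadherin (CDH3) fell by 0.82 ± 0.099 and E-cadherin (CDH1) by 0.53 ± 0.085, and without the LR3 ceritinib array CDH1 was not called (difference -0.43, adjusted p = 0.0698). VIM was below the floor on every array, and of 26 mesenchymal genes 6 could be tested, with LUM called higher and FN1 and S100A4 lower. Neither fall was called with any LR3 or parental array left out.

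Some neuronal adhesion and homeobox genes fell in LR3. CADM1, an adhesion molecule of epithelia and synapses, fell by 2.86 ± 0.12, from 8.37, 8.36 and 8.62 to 5.29 and 5.89 (adjusted p = 1.7e-05). GABRB1, a GABA receptor subunit, fell by 2.54 ± 0.085, with 1 of its 2 probe sets of opposite sign, and was below the floor in LR2 too (3.56, 3.46 and 3.43). NPTX1, described above by pair, fell by 2.88 ± 0.24 in the fit, and the pair differences averaged -1.565 over its 2 probe sets. SOBP fell by 2.62 ± 0.10 (2 of its 4 probe sets with opposite sign) and SLITRK6, a synaptic adhesion protein, by 1.74 ± 0.14. ADGRL2, a latrophilin receptor of synaptic adhesion, fell by 2.19 ± 0.11. Over 22 synaptic and neuronal adhesion genes 9 were called lower (40.9%) and 1 higher, with a median of -0.40. Without the untreated LR3 array 9 were called lower, and without the ceritinib LR3 array 6.

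HOXB5, a homeobox factor of trunk and lung patterning, read 7.17, 7.21 and 7.30 in parental, 7.86, 8.38 and 8.16 in LR2 and 5.41 and 5.46 in LR3 cells. It fell by 1.73 ± 0.12 from parental cells, and LR3 minus LR2 was -2.64, with no overlap of LR3 with either line. Its neighbour HOXB3 fell by 1.5 ± 0.16, and the HOX cofactor PBX3 by 0.98 ± 0.14. Over the 4 HOXB3 probe sets the mean of the pair differences was -0.49. Of 20 homeobox genes tested, 7 were called lower (35.0%) and none higher, and 4 lower without the ceritinib LR3 array.

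BMP7, a secreted bone morphogenetic protein, was at 6.89, 7.01 and 7.02 in parental and 7.37, 7.26 and 7.42 in LR2 cells and at 4.20 and 4.70 in LR3 cells. The fall was 2.54 ± 0.12 from parental cells (adjusted p = 2.3e-05), and both LR3 values lay below all values of the other lines. Averaged over the 2 BMP7 probe sets, the pair differences came to -1.58. The TGF-beta receptors TGFBR2 and TGFBR1 fell by 1.14 ± 0.11 and 0.83 ± 0.089, while ID4, an inhibitor of differentiation factors, rose by 1.06 ± 0.088 and the matrix protein TGFBI by 0.67 ± 0.082. Over 31 genes of this pathway 6 were called lower (19.4%) and 2 higher (6.45%), and with either LR3 array left out 3 were called lower. The WNT receptor FZD2 fell by 1.40 ± 0.20, the NOTCH coactivator MAML2 by 1.16 ± 0.13 and the NOTCH-modifying enzyme LFNG by 0.97 ± 0.095.

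YAP and TEAD targets had the highest share called lower among the lists with at least 8 tested genes. YAP1 and WWTR1 encode coactivators that work with TEAD factors on growth and matrix genes. Of 21 tested members, 11 were called lower (52.4%) and none higher, with a median of -0.31. With either LR3 array left out 6 were called lower, and 3 of the 11 lie in lower stretches of chromosome 11, described below. The ectonucleotidase NT5E fell by 1.76 ± 0.11, from 8.76, 8.44 and 8.46 to 6.87 and 6.87, the membrane repair protein MYOF by 1.03 ± 0.097 and WWTR1 by 1.02 ± 0.18, though without the untreated LR3 array WWTR1 was not called (difference -0.74, adjusted p = 0.0796). YAP1 fell by 0.49 ± 0.089, named after its value was seen, and without the LR3 ceritinib array YAP1 was not called (difference -0.44, adjusted p = 0.0897). The laminin chain LAMB3 fell by 1.45 ± 0.11 and the collagen COL4A2 by 0.96 ± 0.11, with LR2 minus parental at -1.61 and -1.14. They were among 6 of 19 matrix and integrin genes called lower, with none called higher. Over these 19 genes LR3 minus LR2 had a median of 0.155. Without the untreated parental or the ceritinib LR3 array 3 were called lower. LOXL4, a collagen cross-linking enzyme, fell by 1.98 ± 0.21, and the protease inhibitor SERPINE2 by 1.38 ± 0.079. LR2 minus parental was -1.40 for LOXL4 and -1.60 for SERPINE2. Averaged over the 2 LOXL4 probe sets, the pair differences came to -1.185.

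**Figure D4:**
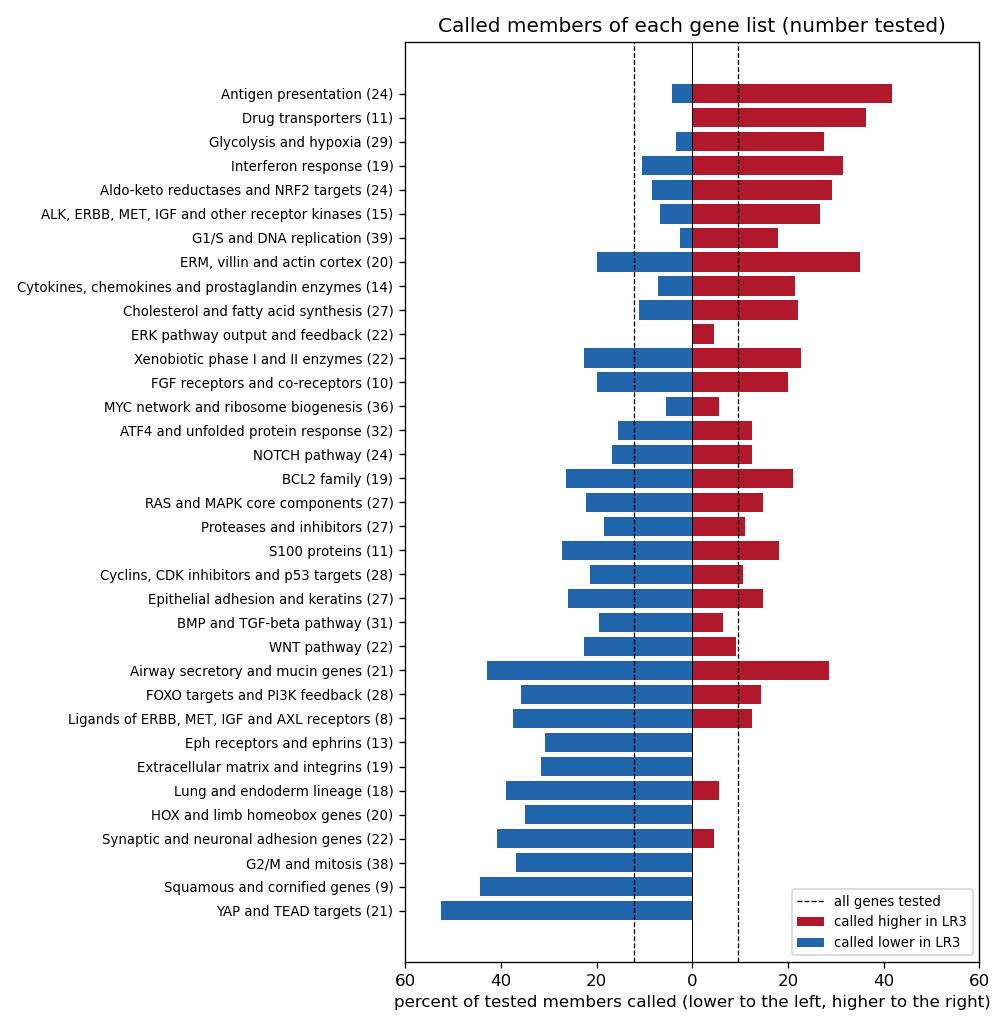
Bars show the percent of tested members of each gene list with at least 8 tested members that were called higher (red, right) or lower (blue, left) in LR3 against parental cells, with 9.53% and 12.1% of all genes as dashed lines. Antigen presentation has the longest bar to the right (41.7%) and YAP and TEAD targets to the left (52.4%).

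The drug transporters that were called were all higher in LR3. ABCG2, an efflux pump that exports many drugs, read 5.99, 5.62 and 5.76 in parental, 6.21, 6.13 and 6.20 in LR2 and 7.46 and 7.43 in LR3 cells. LR3 lay above both other lines, by 1.60 ± 0.093 or 3.03-fold over parental cells (adjusted p = 6.32e-05) and by 1.21 over LR2 (adjusted p = 0.000205). Averaged over the 2 ABCG2 probe sets, the pair differences came to 0.96. The organic anion uptake carrier SLCO4A1 rose by 1.06 ± 0.16 and the efflux pump ABCC3 by 0.90 ± 0.19, and without the LR3 ceritinib array ABCC3 was not called (difference 0.72, adjusted p = 0.138). Of 11 drug transporters tested, 4 were called higher (36.4%) and none lower, and 2 higher without the ceritinib LR3 array. ABCB1, the P-glycoprotein gene, was below the floor on every array.

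AKR1C2, an aldo-keto reductase of steroids and xenobiotics, was already bright in parental cells (8.71, 8.88 and 9.11) and read 11.25 and 11.10 in LR3. The rise was 2.29 ± 0.12 or 4.88-fold (adjusted p = 4.26e-05), while the pair differences averaged 1.38 over the 3 AKR1C2 probe sets. LR2 read 11.52, 11.63 and 11.55, above both LR3 values, with LR3 minus LR2 at -0.38 (adjusted p = 0.066). AKR1C3 rose by 1.18 ± 0.097, with 1 of its 2 probe sets of opposite sign, and AKR1C1 by 1.04 ± 0.11. AKR1C genes resemble each other closely in sequence, and the assignment of probe sets among them is uncertain. PGD, a pentose phosphate enzyme, rose by 0.71 ± 0.082. HMOX1, or heme oxygenase, a classical stress-induced NRF2 target, went the other way, from 8.18, 7.79 and 7.94 to 6.24 and 6.18, a fall of 1.84 ± 0.098 (adjusted p = 3.97e-05). Of 24 members of this list 7 were called higher (29.2%) and 2 lower. Leaving out either LR3 array or the untreated parental array left 4 called higher, and 1 was called lower with any 1 array left out.

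The antioxidant response motif TGACNNNGC, searched on both strands of the 250-base windows, was found in 6 of 20 list members (30.0%) and in 12.1% of all tested genes. Of the 6 members called higher with a window, 1 held it. Of 22 other xenobiotic enzymes 5 were called in each direction (22.7%). With either LR3 array or the untreated parental array left out 1 was called higher, and 3 were called lower without the ceritinib LR3 array. The retinol dehydrogenase DHRS9 rose by 1.10 ± 0.17, and without the LR3 ceritinib array DHRS9 was not called (difference 0.84, adjusted p = 0.0575). The aldehyde dehydrogenase ALDH3A1 fell by 1.0 ± 0.081 and the cytochrome CYP1B1 by 0.70 ± 0.097.

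Antigen presentation genes had the highest share called higher among the lists with at least 8 tested genes. PSMB9 and PSMB8 are subunits that turn the proteasome into the immunoproteasome, which cuts peptides for HLA class I. PSMB9 read 5.07, 5.29 and 5.23 in parental and 6.27 and 6.61 in LR3 cells, a rise of 1.22 ± 0.11 (adjusted p = 0.000578), and PSMB8 rose by 0.93 ± 0.077, with 1 of its 3 probe sets of opposite sign. HLA-C rose by 0.91 ± 0.085, from 10.38, 10.64 and 10.58 to 11.30 and 11.52, and the peptide loading factor TAPBP by 0.73 ± 0.081. In class II, HLA-DMA rose by 0.75 ± 0.088 and HLA-DMB, its partner chain, fell by 1.17 ± 0.11. HLA genes are similar in sequence, so the assignment of their probe sets is uncertain.

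Of 24 tested members 10 were called higher (41.7%) and 1 lower, with a median of 0.27 beside 0.0067 for all genes. With probe sets of the name suffixes _s, _x or _a left out where a gene had another, 4 were called higher. Fewer than 10 were called higher with either LR3 array left out. Of the 10, 8 lie in a stretch of chromosome 6 whose genes were higher as a block, described below. Leukocyte markers were below the floor for 14 of 17 genes, and their mean was 4.34 to 4.38 on parental and 4.35 to 4.38 on LR3 arrays.

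Interferon response genes included 6 of 19 called higher (31.6%) and 2 lower. Without the untreated parental array 2 were called higher, while 3 were with the untreated and 4 with the ceritinib LR3 array left out. IFI35, an interferon-induced protein, rose by 2.12 ± 0.16 from 4.69, 5.15 and 4.91 to 6.94 and 7.13 (adjusted p = 0.000185), while LR2 read 4.53, 4.46 and 5.01. OAS1, a sensor enzyme of viral RNA, rose by 0.76 ± 0.10, and IFITM1 and IFITM2, membrane restriction factors that are near copies of each other, fell by 0.50 ± 0.10 and 0.48 ± 0.085. Neither was called with an LR3 array left out. The interferon-stimulated response element, searched on both strands, was found in 10 of 16 interferon windows (62.5%) and in 2.04% of all tested genes. It was found in 2 of the 6 interferon genes called higher, and in 2 of the 10 called antigen presentation genes.

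Of 14 cytokine, chemokine and prostaglandin enzyme genes, 3 were called higher, all of them enzymes of prostaglandin metabolism, and CCL20 lower. Without the untreated parental or the untreated LR3 array the chemokine CCL20 was not called (differences of -0.43 and -0.41 in place of -0.66). PTGS2, the inducible cyclooxygenase COX-2, read 7.59, 5.91 and 5.61 in parental and 8.31 and 7.87 in LR3 cells. It rose by 1.41 ± 0.32, with 0.72 untreated and 2.26 with ceritinib, and without the LR3 ceritinib array PTGS2 was not called (difference 1.02, adjusted p = 0.179). PTGES, which makes prostaglandin E2 from the product of cyclooxygenase, rose by 1.04 ± 0.080 (adjusted p = 0.000207), and HPGD, which degrades prostaglandins, by 0.75 ± 0.10. STEAP4, a metalloreductase induced in inflammation, rose by 1.34 ± 0.091. BCAS1 rose by 1.37 ± 0.13, with 1 of its 6 probe sets of opposite sign. NME5, a protein of cilia and sperm tails, rose by 1.40 ± 0.25, and without the LR3 ceritinib array or the untreated LR3 array, NME5 was not called (differences from 1.26 to 1.55, adjusted p up to 0.0785).

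Cell cycle genes of different phases were called in different directions. Of 39 G1/S and replication genes, 7 were called higher (17.9%) and 1 lower, led by the helicase subunit MCM3 (0.60 ± 0.082), and with either LR3 array left out 1 was called higher. Over 38 G2/M and mitosis genes the median was -0.22, with -0.09 in the untreated and -0.375 in the ceritinib pair. LR2 minus parental had a median of -0.205 over them. None of the 38 was called higher in LR3 and 14 were called lower (36.8%). The count was 11 with the untreated LR3 array left out and 5 with the ceritinib LR3 array left out. NDC80, a kinetochore protein, fell by 0.94 ± 0.10, the spindle checkpoint kinase TTK by 0.72 ± 0.10 and the centromere histone CENPA by 0.61 ± 0.087. Of the 14, 4 lie in stretches of lower neighbouring genes described below. MKI67 differed by -0.32 ± 0.14 and was not called. The CDK inhibitor CDKN1A rose by 0.85 ± 0.11 and CDKN1C fell by 1.02 ± 0.097, both with no overlap of the lines.

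FOXO target genes, which rise when PI3K and AKT signalling drops, were called lower for 10 of 28 tested members (35.7%) and higher for 4. FBXO32, a ubiquitin ligase subunit, read 6.53, 8.37 and 8.32 in parental and 5.49 and 6.68 in LR3 cells, so it was higher with ceritinib than without in both lines. LR3 was lower within each pair, by 1.30 ± 0.20 in the fit, though the lines overlapped across agents. KLHL24 fell by 1.26 ± 0.24 and the cyclin CCNG2 by 1.01 ± 0.14, with 1 of 5 CCNG2 probe sets of opposite sign. The factor FOXO1 itself fell by 0.88 ± 0.10, with 2 of its 4 probe sets of opposite sign. Without the untreated LR3 array 5 members were called lower and without the ceritinib LR3 array 2, and FBXO32 and KLHL24 were not called without the latter.

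Apoptosis genes of the BCL2 family were called in both directions, 4 of 19 higher and 5 lower. With either LR3 array left out none was called higher and 1 lower. The BH3-only gene BMF fell by 0.79 ± 0.13, and without the LR3 ceritinib array BMF was not called (difference -0.75, adjusted p = 0.0682). BCL2L11, or BIM, which ALK inhibitors induce, differed by -0.13 untreated and -0.80 with ceritinib and was not called (-0.42 ± 0.15, adjusted p = 0.075). Glycolysis genes were called higher for 8 of 29 (27.6%) and lower for 1, among them the phosphofructokinase PFKP (0.84 ± 0.12) and the aldolase ALDOC (0.75 ± 0.090). With either LR3 array left out 4 were called higher. In signalling, the kinase MAPK3, or ERK1, rose by 0.60 ± 0.092, the PI3K regulatory subunit PIK3R3 fell by 1.23 ± 0.17 and the SRC family kinase YES1 by 0.72 ± 0.087. PHGDH, which opens serine synthesis, fell by 0.99 ± 0.089, and the RNA-decay factor ZFP36L1 by 1.54 ± 0.10. Averaged over the 6 ZFP36L1 probe sets, the pair differences came to -0.64.

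Many called genes lay next to each other on a few chromosomes. Tested genes were put in RefSeq order, and a stretch was a run of windows of 15 genes whose median differed by at least 0.3 in the same direction in both pairs. There were 21 stretches, 7 higher and 14 lower, with 800 of 10519 placed genes (7.61%). They were chosen on the same differences, so the counts inside them are descriptions. With windows of 10 genes there were 18 higher and 29 lower stretches, and with windows of 25 genes 3 and 9.

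Chromosome 3 had 3 lower stretches with 207 genes, from EMC3 to CSRNP1, RPL14 to TREX1 and RASSF1 to CHMP2B, with medians of -0.41 to -0.37 untreated and -0.43 to -0.32 with ceritinib. Of the 207 genes 128 were called lower, TGFBR2 and IL17RD among them, and 2 higher, of which RFTN1 was the larger. Chromosome 11 had 6 lower stretches, also with 207 genes, of which 116 were called lower and none higher, among them CADM1, MAML2, SC5D (-0.57 ± 0.075) and RRAS2 (-0.67 ± 0.076). In LR2 the medians of these stretches were near 0, in a comparison that uses the same parental arrays. Stretch medians of LR2 minus parental were 0.01 to 0.052 on chromosome 3 and 0.0033 to 0.057 on chromosome 11. Single genes departed from this, with LR2 minus parental at -2.45 for CADM1, -0.77 for MAML2, -0.43 for TGFBR2 and 1.10 for RFTN1. A stretch of chromosome 18 with NDC80 and YES1 was similar, with -0.36 and -0.33 in the pairs and -0.03 in LR2.

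Chromosome 6 had 4 higher stretches with 181 genes, 93 of them called higher, with medians of 0.29 to 0.36 untreated and 0.29 to 0.34 with ceritinib. The longest, from HLA-H to TAF11, had 102 genes and included FLOT1, PSMB8 and PSMB9, and another included CCND3. CCND3 rose by 0.69 ± 0.12, and without the LR3 ceritinib array CCND3 was not called (difference 0.60, adjusted p = 0.0789). LR2 was higher than parental cells there too, with stretch medians of LR2 minus parental of 0.20 to 0.31. Chromosome 6 also had 1 lower stretch of 15 genes, from RAB32 to MTHFD1L, with medians of -0.43 untreated and -0.51 with ceritinib. Chromosome 14 had 2 lower stretches with 91 genes, 49 of them called lower, ZFP36L1 among them, and LR2 minus parental was -0.30 to -0.27 there. One stretch on chromosome 17 was higher, at 0.36 and 0.37, and at 0.23 in LR2. Chromosome X had 2 higher stretches with 34 genes, and chromosome 5 had 1 lower stretch with 15.

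By whole chromosome, 207 of 636 tested genes of chromosome 11 (32.5%), 183 of 584 of chromosome 3 (31.3%) and 100 of 364 of chromosome 14 (27.5%) were called lower, against 12.1% of all genes. On chromosome 6, 125 of 540 (23.1%) were called higher, and on chromosome 17 133 of 661 (20.1%), against 9.53%. Chromosome X, with 57 of 296 (19.3%), and chromosome 22, with 50 of 276 (18.1%), were close to these. FGFR3 and TACC3 lay in no stretch, and 7.82% of the tested genes of chromosome 4 were called higher.

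**Figure D5:**
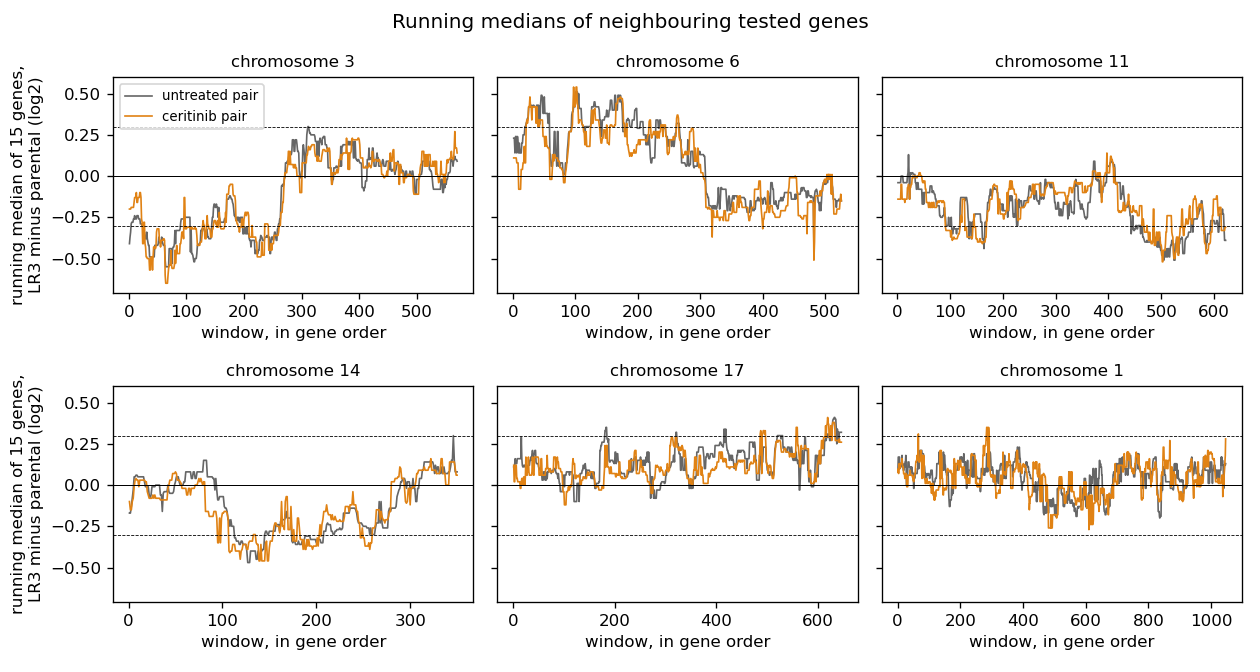
Lines give the running median of 15 neighbouring tested genes, LR3 minus parental in log2 units, for the untreated pair (grey) and the ceritinib pair (orange), against window number in gene order on 6 chromosomes, with dashed lines at 0.3 and -0.3. The first part of chromosome 3 and several parts of chromosome 11, the last among them, lie low in both pairs. The first part of chromosome 6 lies high in both pairs, while chromosome 1 stays near 0.

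LR3 differed from the other resistant line in nearly as many genes as from parental cells. The same limma model called 767 genes higher (7.29%) and 1297 lower (12.3%) in LR3 than in LR2, 19.6% of those tested. MSN (3.38), IFI35 (2.38), ANXA9 (2.14) and CCL15 (1.95) were higher in LR3 than in LR2, and BMP7 (-2.91), NPTX1 (-2.76), HOXB5 (-2.64) and EPHA3 (-2.37) lower, each with an adjusted p under 0.05. For other genes of the largest differences from parental cells, the difference from LR2 was small and not called: GABRB1 (-0.10, adjusted p = 0.46), IGFL1 (-0.35, adjusted p = 0.278), BCAS1 (-0.11, adjusted p = 0.607) and CADM1 (-0.41, adjusted p = 0.0534). These p-values do not show that the 2 lines are alike in those genes. LR2 was also lower than parental cells in MUC4 (-2.08), SOBP (-2.17), ADGRL2 (-1.69), CLDN1 (-1.18) and ANXA1 (-1.27). In other genes that fell in LR3, LR2 was higher than parental cells, as in BMP7 (0.38), HOXB5 (0.91) and EPHB1 (1.34). These genes were picked after their LR2 values were seen.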

How the data were processed

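The authors deposited log2 probe set signals made with RMA (background correction, quantile normalization and probe summary), per the submitters' processing notes; software version and which arrays were normalized together are not given in the sources used here. Of 49395 probe sets, 44988 had 1 gene symbol in the platform annotation, for 18132 genes. Each gene was represented by its probe set of highest mean, and 10527 genes with a signal above 5.36 (the 50th percentile of all values) on at least 2 arrays were tested. Array number, not depth, limits the precision.

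limma 3.58.1 in R 4.3.3 fitted line and agent as additive terms to all 8 arrays (3 residual degrees of freedom, prior 4.99), with Benjamini-Hochberg adjustment over all genes tested. A gene was called at an adjusted p under 0.05 with 1 sign in both matched pairs. The agent term acts as the pairing, and the pairing comes from the labelled agent, not from shared cultures. The scripts were tested on simulated data. Gene order and windows of 250 bases came from RefSeq tables for GRCh38.p14, in which 18111 genes were matched.

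Named genes were the 15 largest rises and falls, up to 6 called members of each of 42 gene lists with the largest differences, up to 4 called genes of each stretch, a fixed set of receptor, ERK, lineage, adhesion and transporter genes, and the 5 largest differences between pairs in each direction. The comparison and the lists were chosen with earlier results of these data known. Alternatives were the matched arrays alone, arrays left out in turn, 2 other scalings, 2 other filters, 2 other probe set rules, 2 other agent terms, crizotinib arrays left out, an intensity trend and other window lengths.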

Additional observations from a re-analysis of the deposited data

Results flagged for a closer look

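The LR3 minus parental difference had opposite signs in the untreated and the ceritinib pair for 11 of the 153 genes described with values here. With 1 array per condition, the difference between the pairs was not tested by itself, and in the limma interaction model over all arrays the lowest adjusted p among these genes was 0.91. That model counts the LR2 difference between crizotinib and ceritinib as spread, so it could hardly call ERK output genes. The ceritinib pair minus the untreated pair came to 4.89 for DUSP6, 4.40 for EGR1, 3.24 for SHISA2, 3.09 for DUSP5, 3.08 for PHLDA1 and 2.03 for SPRY1 on the log2 scale. It was 2.44 for EPHA4, an ephrin receptor (-0.84 untreated and 1.60 with ceritinib), and 1.54 for ETV5, a transcription factor downstream of ERK (-0.34 and 1.20). Apart from SHISA2, these 8 genes are on the ERK output list. For the receptor MET the value was 0.40, for IGF1R -0.53 and for LRATD1 -1.24.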

How the results depend on the processing

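No named called difference changed sign under any alternative. A call already asks for 1 sign in both pairs of these arrays, so this was largely fixed in advance. The same holds for the unadjusted p-values of the matched arrays given next. Called genes fell to 0 higher and 0 lower in the 4 matched arrays alone with agent as replicate block, where 123 of the 124 named called genes kept an unadjusted p under 0.05. Across the other 18 alternatives 97 of the 124 kept their call wherever they were tested, 20 lost it without the ceritinib LR3 array, 11 without the untreated LR3 array and 11 with no agent term. With single arrays left out, the counts ranged from 214 to 1102 higher and from 379 to 1209 lower. With no agent term, that is no replicate block, 805 genes were called higher and 1003 lower, and 1568 in place of 2064 were called between LR3 and LR2. Among the 18 alternatives, leaving out the parental crizotinib array, the LR2 crizotinib array or both gave 1 and the same fit. Centring each array moved the median difference of all genes from 0.0067 to 0.038 and gave 1498 higher and 1223 lower genes. Higher stretches numbered 18 with windows of 10 genes, 3 with windows of 25 genes and 11 after centring, in place of 7. Lower stretches numbered 29 and 9 with these windows in place of 14, and with quantile normalization higher stretches held 161 genes in place of 244. Of 1427 gene list values under the alternatives, the leave-outs chosen after seeing the data among them, 1156 stayed close to the main value (medians within 0.1), and 33 medians moved further. With 1 array per condition, a difference between pairs cannot be told apart from the noise of a single array, and genes near the floor have uncertain sizes.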
